A study of Brassica napus with 74 samples.

Results

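The chalazal proliferating tissue (CPT) was compared with the inner seed coat (ISC) in globular-stage seeds of *Brassica napus*, an oilseed allotetraploid that carries an A and a C subgenome. The comparison used the 3 libraries labelled gCPT and the 3 labelled gISC, 6 of the 74 libraries of the series, and all 101,040 genes of its expression table. All plants were of the single cultivar Topas, grown untreated in chambers, and the siliques were taken 7 d after hand pollination. Both tissues were cut by laser microdissection (LMD) from fixed, paraffin-embedded seed sections, so each library is RNA from pooled sections of several plants and not from one seed. A second pair of tissues, the hCPT and hISC of heart-stage seeds taken at 10 d (3 libraries each), shows whether a difference was also found later. The sample labels call the source of the gCPT seed chalaza and that of the gISC seed coat, and the subregion comes from the library title.

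The CPT and the ISC are the inner maternal tissues that border the young endosperm. The CPT develops from the chalazal part of the nucellus, the tissue that surrounds the female gametophyte in the ovule, and lies between the chalazal seed coat (CZSC) and the chalazal endosperm. The ISC develops from the inner integument. Neither tissue is inherited by the embryo, and cells of both are lost while the endosperm grows, during which time sugars and amino acids pass through maternal tissue to the seed. Most genes of *B. napus* exist as a homoeolog pair with one copy on each subgenome, named here by identifiers such as A03g23380D (chromosome A03) and C03g27700D (chromosome C03); the prefix Bna is left out.

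Transcript levels are given as TPM, a unit of read number scaled by gene length and library and the only one deposited, in the order of replicates 1, 2, and 3. A log2 change is the difference between the gCPT and gISC means of log2(TPM + 1), so that positive values are higher in the gCPT, with the standard error (SE) and the adjusted p of limma over all 46,002 genes that reached a mean of 1 TPM in either tissue. A gene was called at an adjusted p under 0.05. The added 1 TPM makes the log2 change of weakly expressed genes smaller than the ratio of their TPM. In dissected tissue, fewer cells of a type and less RNA per cell cannot be told apart.

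Before the results, the libraries were compared with each other. The reads recovered from the steps of low values ran from 4,295,368 to 20,093,711 per library, for genes that held 91.2% to 93.2% of the TPM in gCPT libraries and 61.5% to 78.1% in gISC libraries, and for the median gene 1 read equalled 0.0583 to 0.233 TPM. Between 37,817 and 43,033 genes were above 1 TPM. The Pearson correlation of log2(TPM + 1) was 0.950 to 0.982 among gCPT libraries, 0.929 to 0.948 among gISC libraries, and 0.793 to 0.840 between the tissues. One library stood apart in its content. Lipid and surface genes that the study named for maternal subregions, and that were abundant in the outer seed coat (OSC), were near the lower limit in the gCPT and in gISC replicates 1 and 3, but not in gISC replicate 2. For *GGL19* C05g36950D, a GDSL-type lipase gene, the gISC values were 2.06, 119, and 2.38 TPM, against 828 TPM in the 2 gOSC libraries on average. All 8 listed genes with a gOSC mean of at least 10 TPM showed this, at 10.7% to 17.2% of the gOSC mean in gISC replicate 2, 0.249% to 0.965% in replicate 1, and 0.0293% to 0.897% in replicate 3. In the gCPT libraries they reached at most 0.419%. None of the 8 was called in the comparison of all 6 libraries, while 2 of them were lower in the gCPT at an unadjusted p under 0.05 (limma). Counts of called genes in annotation lists are therefore also given without gISC replicate 2. The part of outer seed coat RNA in the differences was not tested. Of 94 marker symbols listed for seed tissues, 5 could be matched to identifiers, none of them a marker of the inner integument, so the label of the gISC was not checked by markers. The nucellus markers *WIH1* and *WIH2* are described with the results.

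**Figure D1:**
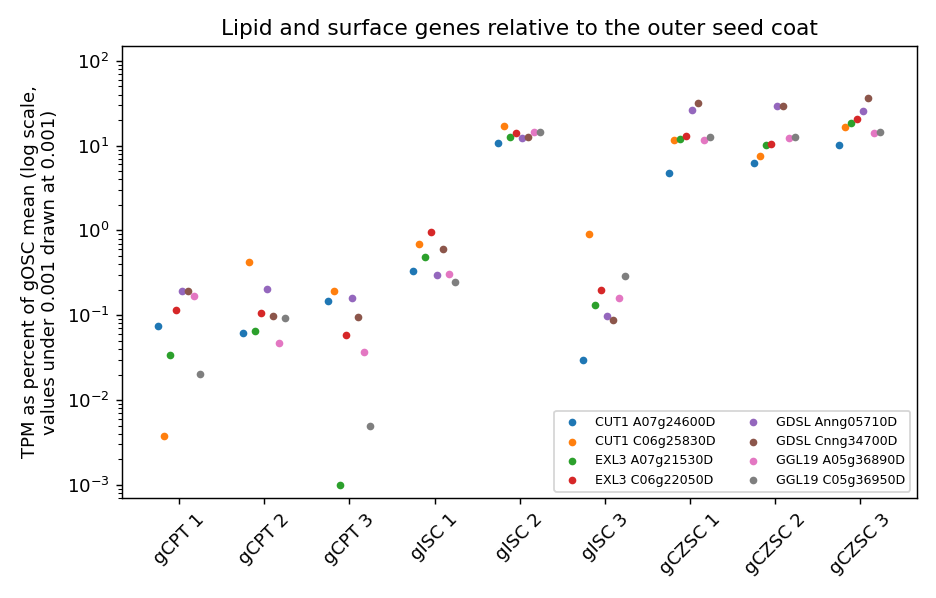
TPM of 8 lipid and surface genes in each gCPT, gISC, and gCZSC library, as percent of the mean of the gOSC libraries (log axis; each colour is a gene, and each point a library). The points of gISC replicate 2 lie between 10.7% and 17.2%, within the 4.78% to 36.2% of the gCZSC libraries, and those of the other gISC libraries under 1%.

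The tissues differed in 38.8% of the genes tested. Of 46,002 genes, 8,602 (18.7%) were called higher and 9,245 (20.1%) lower in the gCPT, and for 17,676 of these 17,847 genes the 3 gCPT libraries did not overlap the 3 gISC libraries, against 53.3% of all tested genes. Changes of at least 3 on the log2 scale were found for 824 genes that were higher and 789 that were lower, and changes of at least 5 for 184 and 131. Without gISC replicate 2, the counts were 9,872 higher and 8,674 lower, which included 8,092 of the genes that were higher and 7,757 of the genes that were lower in the fit of all libraries. The balance between higher and lower moved with the scale and the set of genes tested. The 100 most abundant genes held 26.3% to 30.8% of the TPM of gCPT libraries and 30.8% to 45.3% of gISC libraries. When those genes were removed and each library rescaled, more genes reached 1 TPM, and of 53,162 tested genes 7,091 were higher and 13,246 lower, so that 34.9% of the called genes were higher instead of 48.2%, and the median log2 change over all tested genes was -0.36 instead of -0.10.

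**Figure D2:**
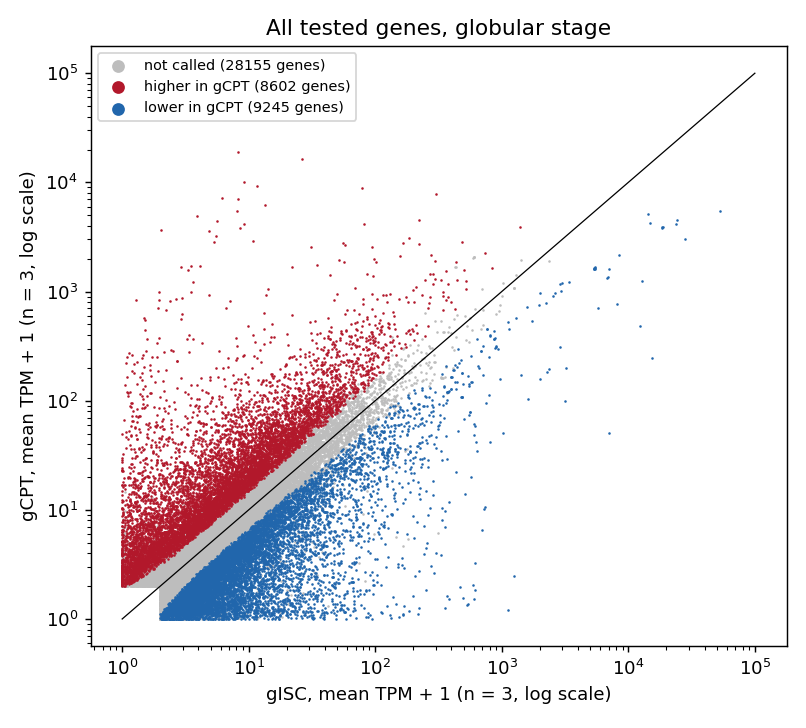
Mean TPM + 1 of each of the 46,002 tested genes in the gCPT (vertical) and gISC (horizontal), on log axes, with 3 libraries per tissue. Red points are the 8,602 genes called higher and blue points the 9,245 called lower in the gCPT; the line marks equal levels, and the empty corner at lower left holds the genes that were not tested.

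Among the 4 maternal subregions of the globular seed (gCPT, gISC, gCZSC, and gOSC), the genes that were higher in the gCPT than in the gISC mostly had their highest mean in the gCPT. This was so for 7,510 of 8,602 (87.3%). The genes that were lower in the gCPT were divided, with 4,480 (48.5%) highest in the gISC, 3,611 (39.1%) highest in the gOSC, and 1,154 (12.5%) highest in the gCZSC. The direction of the comparison fixes part of these shares, and over all tested genes they were 33.2% for the gCPT, 23.5% for the gISC, 29.3% for the gOSC, and 14% for the gCZSC. The gOSC shares are less certain for weakly expressed genes. In gOSC replicate 2 only 792,197 reads were recovered, and 1 read equalled 0.970 TPM on the median gene.

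The gCPT was marked by *WINDHOSE1* (*WIH1*) and *UGE1*. *WIH1* encodes a small peptide that in *Arabidopsis* acts in the nucellus during formation of the megaspore mother cell. Its copy A06g24930D had 589.8, 270.3, and 249.7 TPM in the gCPT and 0.763, 3.10, and 2.82 TPM in the gISC, so the groups were far apart although gCPT replicate 1 was more than 2 times as high as the others (log2 change 6.82, SE 0.42, adjusted p = 1.06e-05). Among the other globular subregions it was found in the gCZSC (56.8 TPM on average) and at 9.58 TPM or less elsewhere. *UGE1* encodes a UDP-glucose 4-epimerase, which interconverts UDP-glucose and UDP-galactose for the synthesis of cell wall polysaccharides. *UGE1* A08g24600D had 2411, 2599.6, and 2677 TPM in the gCPT and 93.3, 81.9, and 103 TPM in the gISC (log2 change 4.78, SE 0.20, adjusted p = 1.7e-06). *UGE1* C08g15730D had 2515, 2910.3, and 2975 TPM in the gCPT and 148, 159, and 189.8 TPM in the gISC (log2 change 4.07, SE 0.21, adjusted p = 4.24e-06). Both copies were thus high in every gCPT library and were among the 3 most abundant annotated genes of that tissue. In the remaining 6 globular subregions their means were at most 82.6 TPM.

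Among the 12 annotated genes that rose most, several came as genes with the same annotation on both subgenomes. A pair of transcription factor genes annotated to specification of the primary shoot apical meristem was high in the gCPT and near the lower limit in the gISC. Cnng49040D had 145, 132, and 127 TPM in the gCPT and 0.457, 0.329, and 0.796 TPM in the gISC (log2 change 6.48, SE 0.20, adjusted p = 7.36e-07), and A06g14590D had 83.6, 85.2, and 90.3 TPM and 0.850, 0.103, and 0.557 TPM (log2 change 5.89, SE 0.24, adjusted p = 1.36e-06). Calcium-binding proteins of the plasma membrane formed another pair, with C05g13970D at 795, 1179.9, and 1215 TPM in the gCPT and 14.8, 9.64, and 14.9 TPM in the gISC (log2 change 6.24, SE 0.27, adjusted p = 1.69e-06), and A06g38470D with a log2 change of 6.14. The gene with the largest change among those annotated, A08g27400D, is known here only as a protein of the Golgi and plasma membrane. It had 368, 375, and 387 TPM in the gCPT and 2.43, 0.167, and 0.304 TPM in the gISC (log2 change 7.77, SE 0.39, adjusted p = 3.55e-06). The other genes of this group were annotated to trehalose-phosphatase activity (A03g45450D, log2 change 6.01), xyloglucan metabolism (A05g16360D, 5.92), actin filament depolymerization (A01g02250D, 5.80), alanine-glyoxylate transamination (C09g08540D, 5.74), glutamate dehydrogenase (C02g01610D, 5.56), and the response to karrikin (A05g27460D, 5.53). In all 12, including *WIH1*, the gCPT had the highest mean of the 8 globular subregions, and all 12 were also called without gISC replicate 2. The 12 were picked for a large rise in these same libraries, so both counts were fixed in part by that choice.

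Larger changes were found in genes with no annotation among the sources used. C03g32760D had 32468, 12237, and 12802 TPM in the gCPT, the highest mean of any gene there, and 6.33, 0.00433, and 15.4 TPM in the gISC (log2 change 11.77), with gCPT replicate 1 well above the others. C08g08490D had 4764, 2907, and 3206 TPM and 1.83, 0.00110, and 1.20 TPM (log2 change 10.91). In the opposite direction, C03g20530D had 0.00162, 0.134, and 0.527 TPM in the gCPT and 1039, 1001, and 1312 TPM in the gISC (log2 change -9.85), and C03g14230D fell by 8.80 on the log2 scale. All 10 of the most abundant genes of the gCPT were called higher there, and all 10 of the most abundant of the gISC were called lower in the gCPT.

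Among the genes higher in the gISC than in the gCPT were *SWEET1*, *ASPG1*, and *GXM3*. Levels in the other subregions are given here for *SWEET1* Cnng57120D alone. *SWEET1* encodes a plasma membrane transporter of glucose. Its 4 copies did not behave alike. Cnng57120D had 2.50, 1.53, and 1.25 TPM in the gCPT and 198, 208, and 254 TPM in the gISC (log2 change -6.34, SE 0.24, adjusted p = 1.18e-06), and its means in the other 6 globular subregions were at most 2.63 TPM. A08g21340D (-3.85) and C05g16660D (-3.83) were also lower in the gCPT. The fourth copy, A06g15180D, had 393, 341, and 339 TPM in the gCPT and 413, 614, and 522 TPM in the gISC. Its groups did not overlap, but it was not called on the deposited scale (log2 change -0.51, SE 0.23, adjusted p = 0.105); it was called lower after quantile normalization and after rescaling without the most abundant genes. In the gCPT, where A06g15180D had 358 TPM on average, the means of the other copies were 28.0, 5.07, and 1.76 TPM, while in the gISC all 4 copies were between 86.5 and 516 TPM.

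*ASPG1* encodes an aspartic protease described in guard cells of *Arabidopsis*. *ASPG1* A05g21670D had 2.52, 3.04, and 2.94 TPM in the gCPT and 289, 382, and 323 TPM in the gISC (log2 change -6.43, SE 0.20, adjusted p = 7.37e-07), and C05g34710D changed by -4.05. *GXM3* encodes a glucuronoxylan methyltransferase, which modifies the xylan of cell walls. *GXM3* C06g07780D had 2.51, 2.06, and 1.38 TPM in the gCPT and 96.0, 165, and 104 TPM in the gISC (log2 change -5.34, SE 0.27, adjusted p = 3.89e-06), and A09g23510D changed by -4.57. *DSP4*, which encodes a phosphatase that acts on starch granules in *Arabidopsis*, was lower in the gCPT in both copies, with C08g23490D at 3.58, 5.89, and 7.24 TPM in the gCPT and 71.6, 86.4, and 75.9 TPM in the gISC (log2 change -3.62, SE 0.26, adjusted p = 2.01e-05) and A09g32630D changed by -3.20. All 3 genes are thus examples in which both homoeologs were high in every gISC library and low in every gCPT library.

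*DIM* encodes a sterol reductase of brassinosteroid synthesis. Its A01g25880D and C01g33070D copies changed by -3.62 and -3.32, and A05g19350D by -1.83, while C05g32840D was not called (log2 change -0.56, SE 0.35, adjusted p = 0.23). Of the 54 genes named by the study that were tested, 8 were higher, 23 were lower, and 23 were not called, read beside 18.7% higher and 20.1% lower over all tested genes. These genes had been picked by the study from the same libraries, so their directions are not independent evidence. Besides *WIH1*, *WIH2*, *UGE1*, and *CEP1*, the higher ones were both copies of *FAB2* (1.79 and 1.10) and *CRB* A06g05390D (0.91). *FAB2* encodes a stearoyl-acyl carrier protein desaturase of fatty acid synthesis. The study lists *CRB* as cruciferin B, a name that was not checked here. *CRB* A06g05390D had 3.79, 4.51, and 3.56 TPM in the gCPT. *NFD2*, a gene required for nuclear fusion in *Arabidopsis*, was called in neither copy (0.51 and -0.20).

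**Figure D3:**
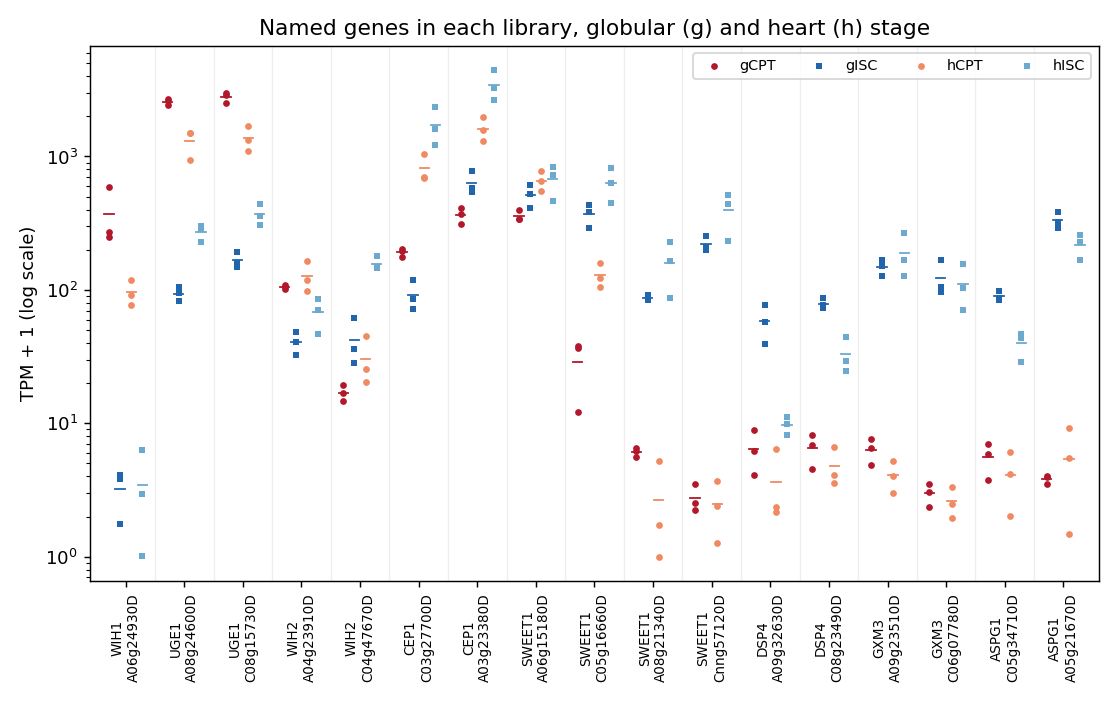
TPM + 1 (log axis) of 17 named gene copies in each library of the gCPT, gISC, hCPT, and hISC, with a short line at the mean of 3 libraries. *WIH1* A06g24930D and both *UGE1* copies are higher in the CPT at both stages, *GXM3*, *ASPG1*, and *SWEET1* Cnng57120D are higher in the ISC at both stages, and the *CEP1* copies lie higher at the heart than at the globular stage in both tissues.

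The annotated genes that fell most in the gCPT also came largely from both subgenomes. Transcription factor genes annotated to abscisic acid signaling had the largest changes. C04g00750D had 0.235, 0.512, and 0.175 TPM in the gCPT and 144, 196, and 159.8 TPM in the gISC (log2 change -7.00, SE 0.22, adjusted p = 6.69e-07), and A05g01190D changed by -6.90. Beta-galactosidases of the apoplast followed, with A02g08480D at 0.439, 0.138, and 0.344 TPM in the gCPT and 121, 115, and 135 TPM in the gISC (log2 change -6.58, SE 0.20, adjusted p = 6.61e-07) and C02g12030D changed by -5.64. Transaminases of branched-chain amino acids (A06g37970D, -6.19; C05g07800D, -5.48) and membrane proteins annotated to nitrate and oligopeptide transport (C02g17990D, -6.04; A02g13640D, -5.64) were likewise near the lower limit in the gCPT. A further pair, A06g10110D and C05g11730D, was annotated to the chloroplast and peptidoglycan synthesis (-5.67 and -5.62). All 12 were called without gISC replicate 2, and in all 12 the gISC had the highest mean of the 8 globular subregions. These counts too were fixed in part, since the 12 were picked for a large fall in the same libraries. The annotated genes with the highest levels in the gISC were cell wall peroxidases. A01g11800D had 2001, 2822, and 1973 TPM in the gISC and 108, 214, and 228 TPM in the gCPT (log2 change -3.67, SE 0.33, adjusted p = 6.79e-05), and was higher still in the gOSC (3018 TPM on average), and C01g13370D changed by -3.76.

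The cysteine endopeptidase *CEP1* was abundant in both tissues, and its copies differed between them in opposite directions. The A copy had the higher mean in both tissues. *CEP1* acts in the programmed death of tapetum cells in *Arabidopsis*. The A copy, A03g23380D, had 309, 368, and 413 TPM in the gCPT and 542, 780.1, and 580.4 TPM in the gISC, and was lower in the gCPT (log2 change -0.79, SE 0.24, adjusted p = 0.0282). The C copy, C03g27700D, had 194, 177, and 200.1 TPM in the gCPT and 84.0, 117, and 71.0 TPM in the gISC, and was higher in the gCPT (log2 change 1.09, SE 0.24, adjusted p = 0.00769). Neither pair of groups overlapped. In the 6 other globular subregions the highest means were 2.98 TPM for the A copy and 1.43 TPM for the C copy. The call for the A copy was lost without any one of the 3 gCPT libraries or gISC replicate 3, with an adjusted p of 0.0598 to 0.091 (limma), and it was kept without gISC replicate 2 (adjusted p = 0.0285). The call for the C copy was kept without each library in turn, with an adjusted p of 0.00118 to 0.0386.

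Other genes for the breakdown of protein were called in either direction at shares near those of all genes. Of 20 tested genes annotated as peptidases, 5 were higher and 5 lower in the gCPT, and 5 and 6 without gISC replicate 2, beside 18.7% and 20.1% of all tested genes. Extracellular aspartic endopeptidases led in the gCPT, with C08g15160D at 367, 475, and 452 TPM in the gCPT and 60.0, 45.5, and 67.0 TPM in the gISC (log2 change 2.89, SE 0.23, adjusted p = 3.94e-05) and A08g25040D changed by 1.65. A chloroplast-annotated aspartic endopeptidase, C01g38610D, was lower in the gCPT (-1.55). Of 19 tested genes annotated to cell death or its regulation, a list that does not hold *CEP1*, 5 were higher and 2 lower, and 5 and 1 without gISC replicate 2. The higher ones included a DNA-binding protein of gibberellin signaling annotated as a positive regulator of programmed cell death (C04g43020D, 3.75; A04g18810D, 2.31) and a membrane protein (A02g20700D, 2.43). After rescaling without the most abundant genes, 4 were higher and 5 lower, so no direction holds for this list under each scale. Serine endopeptidase inhibitors C03g31480D (3.19) and A03g26600D (2.60) were higher in the gCPT, among 3 higher and 1 lower of 10 tested, and 3 and 0 without gISC replicate 2.

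The lists that follow are genes by annotation, taken from the annotated part of the clusters that the study formed from A to C ratios in libraries that include these. They are partial, with 4,581 tested genes carrying a term or a name, and each count is a description read beside 18.7% higher, 20.1% lower, and a median log2 change of -0.10 over all tested genes. A member that passed the limit of 1 TPM through one tissue alone had more room to differ.

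Genes for DNA replication were higher in the gCPT more often than lower. Of 15 tested DNA replication genes, 8 were higher and 0 lower (1 was lower at an unadjusted p under 0.05, limma), with a median log2 change of 0.86, and without gISC replicate 2 the counts were 9 and 0. A DNA recombination, repair, and replication protein rose on both subgenomes, with C03g03340D at 10.1, 11.9, and 11.5 TPM in the gCPT and 1.60, 4.48, and 1.28 TPM in the gISC (log2 change 1.93, SE 0.33, adjusted p = 0.00227) and A03g02300D changed by 1.63. At the heart stage, 0 of 12 tested replication genes were called, beside 6.43% of all genes tested there. Their median log2 change at that stage was 0.38, beside 0.33 over all genes tested there. The wider cell cycle and mitosis list was nearer to all genes, with 13 higher and 6 lower of 53 tested (median 0.13), and 16 and 6 without gISC replicate 2. It was led by a replication origin-binding ATPase on both subgenomes, with C03g74400D at 29.5, 31.2, and 30.9 TPM in the gCPT and 3.51, 8.40, and 3.35 TPM in the gISC (log2 change 2.47, SE 0.31, adjusted p = 0.000428) and A03g38130D changed by 2.21. The members that fell most were kinesins of the cell plate that are also annotated to chloroplast movement (C03g04340D, -3.05; A03g02940D, -1.97). After rescaling, the counts were 7 higher and 1 lower for replication and 12 and 10 for the cell cycle, so no direction holds for the cell cycle list under each scale. At the heart stage, 3 of 65 tested genes of the cell cycle list were higher and 4 lower in the hCPT. Over all genes tested there, 3.13% were higher and 3.3% lower.

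Genes annotated to photosynthesis had 18 higher and 4 lower of 42 tested (median 0.40), and 18 and 6 without gISC replicate 2. The leading members were a nuclear regulator annotated to photoprotection (A09g27780D, 4.18), a phosphoenolpyruvate carboxylase (A05g24610D, 3.96), and a light-harvesting protein of photosystem I, A07g16530D. The last had 54.8, 80.1, and 84.5 TPM in the gCPT and 4.86, 6.79, and 4.83 TPM in the gISC (log2 change 3.50, SE 0.24, adjusted p = 1.87e-05). Of these leading members, only the light-harvesting protein belongs to the photosynthetic machinery. The members that fell most were subunits of pyrophosphate-dependent phosphofructokinase (A06g38560D, -2.53; C05g50320D, -2.47), a glycolytic enzyme, and a Rubisco-associated gene, C02g17140D, whose gISC values of 25.7, 2.65, and 20.6 TPM were low in replicate 2.

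Starch, pectin, and cell wall genes were lower in the gCPT more often than higher. Of 17 tested starch genes, 12 were lower and 2 higher (median -1.45), and the counts were the same without gISC replicate 2. Chloroplast proteins of starch breakdown led, with C08g49610D at 1.90, 2.31, and 2.45 TPM in the gCPT and 25.3, 13.9, and 29.3 TPM in the gISC (log2 change -2.83, SE 0.29, adjusted p = 0.000135), A09g47750D changed by -2.62, and a phosphoglucan, water dikinase, which phosphorylates starch, changed by -2.44 (C09g03660D). In each of these the gISC values were lowest in replicate 2 but above all gCPT values. The exceptions, A03g11260D (1.08) and C03g14120D (0.95), are annotated to the breakdown of polysaccharides. Of 6 tested pectin genes, 5 were lower and 0 higher (0 higher also at an unadjusted p under 0.05, limma), with the same counts without gISC replicate 2, led by a pectinesterase inhibitor, A09g12760D, at 0.00472, 0.389, and 0.00118 TPM in the gCPT and 8.03, 5.89, and 10.5 TPM in the gISC (log2 change -3.00, SE 0.27, adjusted p = 6.96e-05).

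Primary cell wall genes had 7 lower and 3 higher of 17 tested (median -0.74). Polygalacturonases, which cut pectin, led the lower members, with A09g39240D at 1.03, 1.00, and 0.715 TPM in the gCPT and 76.8, 29.0, and 92.6 TPM in the gISC (log2 change -4.98, SE 0.40, adjusted p = 3.92e-05) and C08g49000D changed by -4.03; both were lowest in gISC replicate 2 among the gISC libraries. Without that replicate, 10 genes of the list were lower and 3 higher. The higher members were wall-loosening proteins at low levels, such as A04g16780D with 3.14, 3.31, and 3.37 TPM in the gCPT (1.57). Secondary cell wall genes had 4 lower and 1 higher of 9 tested, and 4 and 2 without gISC replicate 2.

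Amino acid and oligopeptide transporters were also lower more often than higher. Amino acid transporters had 7 lower and 1 higher of 14 tested (median -0.94), and 8 and 2 without gISC replicate 2. The lower ones included a transporter of alanine, glutamate, and glutamine (A09g14700D, -1.45), and the higher one, A06g30640D, had 55.8, 65.0, and 63.4 TPM in the gCPT and 21.7, 29.0, and 24.4 TPM in the gISC (log2 change 1.27, SE 0.21, adjusted p = 0.00174). Oligopeptide transporters had 5 lower and 0 higher of 8 tested (0 also at an unadjusted p under 0.05, limma), and 6 and 0 of 10 without gISC replicate 2. Carbohydrate transporters were divided, with 6 lower and 4 higher of 17 tested, and 5 and 5 without gISC replicate 2. The lower ones were led by *SWEET1*, and the higher ones by A06g16330D, a sucrose transporter annotated to seed maturation, at the low level of 3.68, 2.90, and 3.33 TPM in the gCPT (log2 change 1.88, SE 0.24, adjusted p = 0.000537).

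Genes of polar auxin transport had 7 lower and 1 higher of 16 tested (median -0.64), and 6 and 1 without gISC replicate 2. A membrane protein of basipetal auxin transport led on both subgenomes, with C01g07450D at 24.6, 25.2, and 21.8 TPM in the gCPT and 168, 223, and 184 TPM in the gISC (log2 change -2.95, SE 0.21, adjusted p = 1.89e-05) and A01g06180D changed by -3.15. Brassinosteroid signaling had 4 lower and 0 higher of 10 tested (0 also at an unadjusted p under 0.05, limma), and the same counts without gISC replicate 2. It was led by a nuclear growth regulator, A05g34410D, with 12.3, 15.7, and 9.92 TPM in the gCPT and 128, 152, and 138 TPM in the gISC (log2 change -3.38, SE 0.23, adjusted p = 1.53e-05). Cytokinin signaling was divided, with 5 lower and 3 higher of 15 tested, and 5 and 5 without gISC replicate 2. Response regulators also annotated to the circadian rhythm fell (C04g47580D, -3.27; A04g23810D, -2.23), and other genes with the same annotation rose (A09g36380D, 1.37; C08g27970D, 1.11). Genes of flavonoid and proanthocyanidin synthesis had 6 lower and 3 higher of 12 tested (median -0.66), and 4 and 2 without gISC replicate 2. Lower members outnumbered those that rose, but with only 4 lower and 3 higher after quantile normalization. Among the members that rose, the most abundant was A01g12530D, annotated to proanthocyanidin synthesis and vacuole organization. It had 10.1, 8.42, and 10.8 TPM in the gCPT and 2.57, 1.78, and 2.95 TPM in the gISC (log2 change 1.66).

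**Figure D4:**
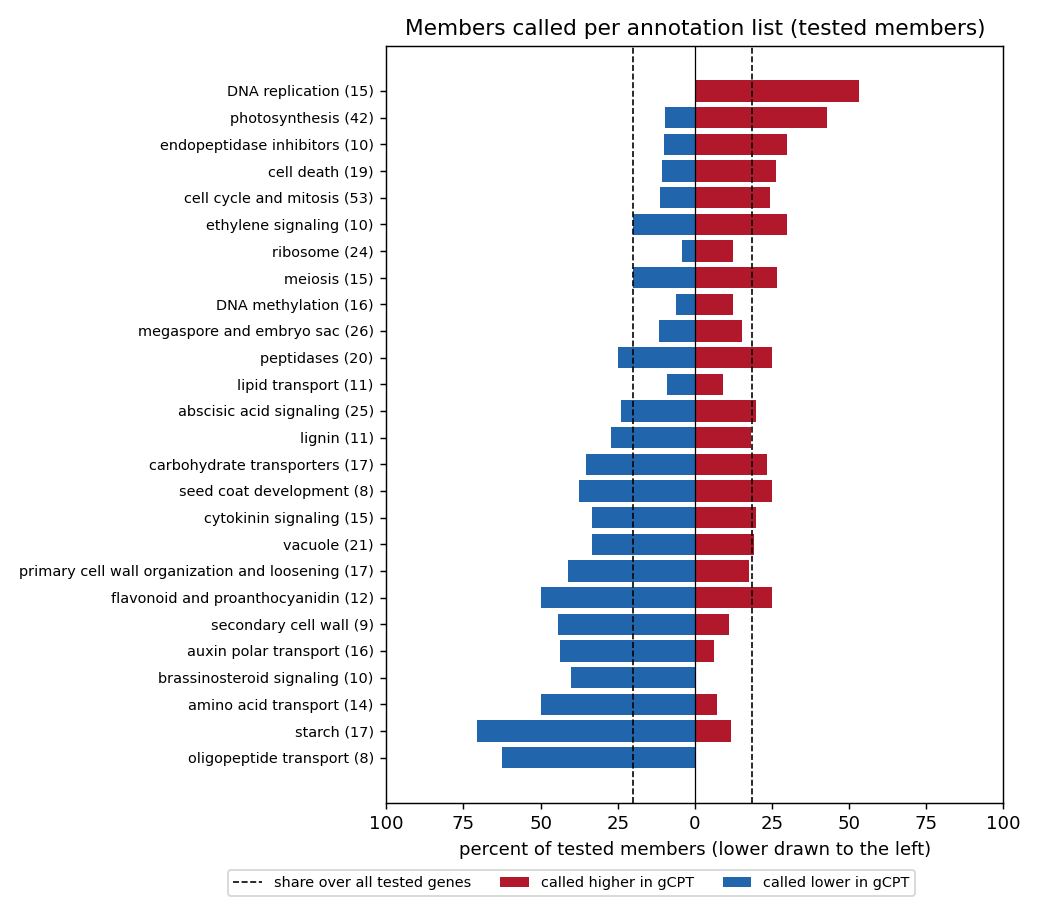
Share of the tested members of each annotation list (number in parentheses) that was called higher (red, to the right) or lower (blue, to the left) in the gCPT, for lists with at least 8 tested members. The dashed lines are the shares over all tested genes, 18.7% higher and 20.1% lower; DNA replication and photosynthesis lie furthest to the right, and oligopeptide transport and starch furthest to the left.

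Where both homoeologs were called, they mostly moved the same way. Of 3,890 A and C pairs to hand, 3,847 came from tables of clusters that the study formed from A to C ratios in libraries that include these. The pairs were thus partly chosen by the quantity compared, and the counts describe this partial set. Both copies were tested in 2,094 pairs. Both copies were higher in the gCPT in 313 pairs and lower in 221, a single copy was called in 551, and neither in 999. The copies were called in opposite directions in 10 pairs. In 2,175 pairs the log2 ratio of the A to the C copy could be tested, and it differed between the tissues in 361 (16.6%), with 193 (8.87%) moved toward A and 168 (7.72%) toward C in the gCPT. The median ratio was 0.49 in the gCPT and 0.42 in the gISC. Only uniquely mapped reads were counted, so reads that fit near-identical copies equally were left out and the ratio of such copies is uncertain. The number of pairs depended on the libraries, with 176 to 235 pairs without gCPT replicate 2, gCPT replicate 3, or gISC replicate 1, and 369 without gISC replicate 2.

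The *CEP1*, *WIH1*, and *WIH2* pairs changed balance between the tissues. For *CEP1* (A03g23380D and C03g27700D), the mean log2 A to C ratio was 0.92 in the gCPT and 2.81 in the gISC, a change of -1.88 (SE 0.15, adjusted p = 0.000375). *WIH2* went the opposite way. Its A copy, A04g23910D, had 103, 101, and 107 TPM in the gCPT and 31.4, 47.5, and 39.8 TPM in the gISC (log2 change 1.39, SE 0.22, adjusted p = 0.00149), and its C copy, C04g47670D, had 13.6, 15.9, and 18.5 TPM and 35.3, 60.1, and 27.3 TPM (log2 change -1.23, SE 0.30, adjusted p = 0.0127). The copies were at about the same level in the gISC (log2 ratio 0.01) and the A copy was higher in the gCPT (2.63), a change of 2.62 (SE 0.23, adjusted p = 0.000467). For *WIH1* the C gene that the study lists beside A06g24930D, C03g23330D, was low in both tissues (0.00197, 0.485, and 1.33 TPM in the gCPT and 1.41, 1.61, and 0.616 TPM in the gISC), and was not called, with a ratio change of 7.34 (SE 0.64, adjusted p = 0.000417). *ASPG1* fell in both copies but more in A, so its ratio changed by -2.38 (SE 0.19, adjusted p = 0.000375), and the *SWEET1* pair of A06g15180D and C05g16660D changed by 3.31 (SE 0.44, adjusted p = 0.00278). Both *UGE1* copies rose, and their ratio changed by 0.70 (SE 0.11, adjusted p = 0.00565).

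**Figure D5:**
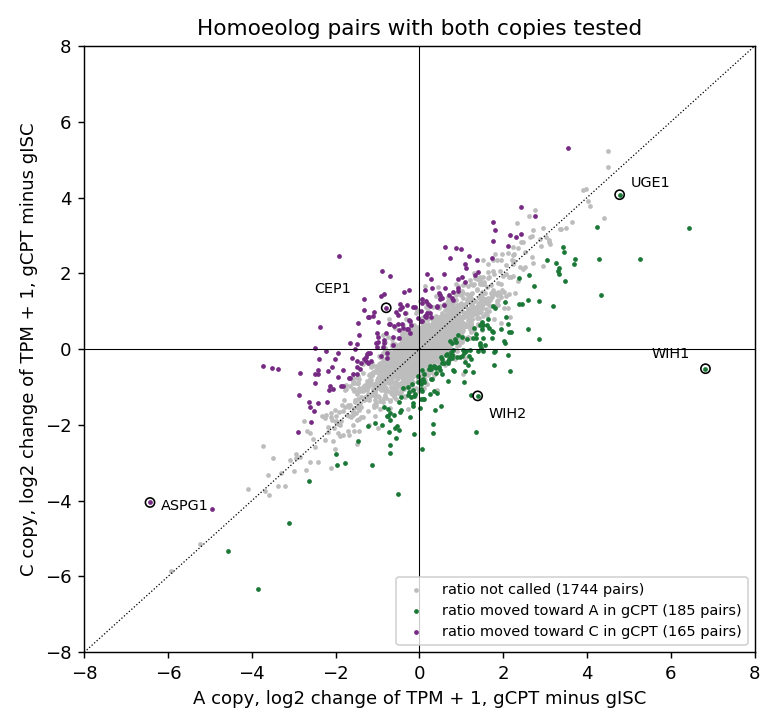
Log2 change of the A copy (horizontal) and the C copy (vertical) between the gCPT and gISC for 2,094 homoeolog pairs with both copies tested. Green and purple points are pairs whose A to C ratio was called; most pairs lie along the dotted diagonal, while *CEP1* and *WIH2* lie in the quadrants where the copies moved in opposite directions and *WIH1* rose in the A copy alone.

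At the level of all transcripts, C genes held a smaller share of the A and C TPM in the gCPT. The share was 56.4%, 54.5%, and 53.7% in the gCPT and 66.0%, 59.0%, and 64.3% in the gISC, so the groups did not overlap. The difference of the means was -8.21 percentage points, with p = 0.1 in a two-sided exact permutation test, the smallest p that 3 against 3 libraries allow. Genes on chromosome C09 held 8.12% to 10.6% of the TPM of gCPT libraries and 20.4% to 32.3% of gISC libraries, and 7 of the 10 most abundant genes of the gISC lay there. Without chromosome C09 the difference was 1.97 percentage points, in the opposite direction (p = 0.1, exact permutation test), and without the 100 most abundant genes it was -1.21. Among genes above 1 TPM, the share of C genes was 53.3% in the gCPT and 53.2% in the gISC (p = 0.8, exact permutation test).

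The difference between the tissues was in part also found at the heart stage, in libraries that share no sample with those of the globular stage. There 2,189 of 70,026 genes (3.13%) were higher and 2,313 (3.3%) lower in the hCPT than in the hISC, 6.43% in either direction. Of the genes called higher in the gCPT, 8,307 were tested at the heart stage and 1,570 (18.9%) were called higher in the hCPT, which is 71.7% of all genes called higher there, and 24 were called lower. Of those called lower in the gCPT, 8,921 were tested and 1,759 (19.7%) were called lower in the hCPT, 76.0% of all genes called lower there, and 29 were called higher. The sign was the same in 82.6% and 84.4%, against 69.0% of all genes tested at both stages. Heart-stage libraries were less alike, with correlations of 0.776 to 0.875 among the hCPT and 0.820 to 0.887 among the hISC, hISC replicate 3 had 793,516 recovered reads, and hCPT replicate 3 had 84,887 genes above 1 TPM. Without hCPT replicate 1 the counts were 1,098 higher and 1,032 lower, without hCPT replicate 2 they were 1,287 and 1,310, and without hISC replicate 2 they were 1,914 and 1,472.

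Of the 24 annotated genes with the largest changes, 23 were called in the same direction at the heart stage. *WIH1* A06g24930D had 91.2, 75.6, and 118 TPM in the hCPT and 5.34, 1.96, and 0.0173 TPM in the hISC (log2 change 5.14, SE 0.54, adjusted p = 9.14e-05). A08g27400D had 1507, 1748, and 1214 TPM in the hCPT and 53.6, 13.0, and 0.00789 TPM in the hISC (log2 change 7.33, SE 1.02, adjusted p = 0.000762). *SWEET1* Cnng57120D had 2.72, 0.278, and 1.40 TPM in the hCPT and 443, 511, and 231 TPM in the hISC (log2 change -7.38, SE 0.43, adjusted p = 1.07e-06), so it was higher in the ISC than in the CPT at both stages. *WIH2* C04g47670D was again lower in the CPT (-2.45, adjusted p = 0.000807), while the A copy was not called (0.92, adjusted p = 0.175). The exception among the 24 was A01g02250D, annotated to actin depolymerization, which had 86.2, 85.6, and 87.7 TPM in the gCPT but 0.357, 3.57, and 9.06 TPM in the hCPT (log2 change 0.53, SE 0.73, adjusted p = 0.695).

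A difference between the stages was tested for each gene. The change between tissues at the heart stage minus that at the globular stage was called in 1,275 of 72,589 genes (1.76%; 589 or 0.811% with a larger and 686 or 0.945% with a smaller value at the heart stage), and 892 of these were also called at the globular stage, 807 of them with a tissue difference that was smaller or turned at the heart stage. Because the globular change is subtracted in this test, genes called at the globular stage are more likely to be called with a smaller difference later. The count of 807 was thus fixed in part by the choice of genes. *UGE1* remained higher in the CPT but by less. *UGE1* A08g24600D had 939.5, 1503, and 1490.3 TPM in the hCPT and 302, 286, and 228 TPM in the hISC, a difference between stages of -2.53 (SE 0.41, adjusted p = 0.0068). *CEP1* C03g27700D had higher values than at the globular stage in both tissues, with 694, 1042, and 700.3 TPM in the hCPT and 1617, 2334, and 1219 TPM in the hISC. Its higher level in the globular CPT was not kept, with a difference between stages of -2.15 (adjusted p = 0.0263). That call was lost without hISC replicate 2 or any one of the globular libraries other than gISC replicate 2 (adjusted p of 0.0597 to 0.0926, limma). *CEP1* A03g23380D had 1566, 1969, and 1297 TPM in the hCPT and 3242, 4429.7, and 2671 TPM in the hISC, with no call at the heart stage (log2 change -1.09, SE 0.50, adjusted p = 0.296).

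Several named genes with low globular levels also differed between the stages. The pectinesterase inhibitor A09g12760D had 0.904, 1.02, and 1.57 TPM in the hCPT and 165, 247, and 239 TPM in the hISC, and its difference between stages was -3.64 (adjusted p = 0.000667). A06g16330D, the sucrose transporter annotated to seed maturation, had 348, 365, and 107 TPM in the hCPT and 5.51, 3.06, and 0.00469 TPM in the hISC, with a difference between stages of 4.45 (adjusted p = 0.0129). C08g33220D, a cysteine endopeptidase annotated to vacuolar protein processing, had 1.75 ± 0.238 TPM (SD, n = 3) in the gCPT and 114, 152, and 43.7 TPM in the hCPT, against 7.72, 2.74, and 0.443 TPM in the hISC (3.34, adjusted p = 0.041). The proanthocyanidin-annotated gene A01g12530D had 37.6, 15.4, and 41.0 TPM in the hCPT and 51.1, 72.3, and 105 TPM in the hISC and differed between the stages (-2.97, adjusted p = 0.009). For the single genes of this paragraph, the calls without each library in turn are not given here. The count of genes that differed between stages depended on single libraries. It was 2,243 without hCPT replicate 1 and 2,090 without hISC replicate 3, 730 without hCPT replicate 2, and 517 to 656 without any one of the globular libraries other than gISC replicate 2.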

How the data were processed

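Seed subregions were dissected from sections, and their RNA was sequenced on an Illumina HiSeq. After trimming (fastp), HISAT2 placed the reads on the Darmor-bzh genome, featureCounts counted the uniquely mapped ones per gene, and the authors deposited TPM for 74 libraries; versions and use of strand are not given in the sources used here, so reads of overlapping genes may be shared. One column, of a mature green library, matched no single sample and was not used. A constant of 0.01 reads added to each gene allowed reads to be recovered from the steps of low values for 100,952 of 101,040 genes (99.9% of low values were whole within 0.1 reads). These reads served only to describe depth, and no count test was run.

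Genes that averaged 1 TPM or more in either tissue were tested on log2(TPM + 1) with limma 3.58.1 (R 4.3.3; trended variance, two-sided, Benjamini-Hochberg). The fit was tested on simulated data. The log2 A to C ratio was tested for pairs with at least 2 TPM in both tissues. Single values used exact permutation tests (scipy 1.17.1). Libraries are separate pools of sections. Pairs, annotations, and names come from the parts of the study's tables to hand.

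Named genes are the study's named genes, the 12 annotated genes that rose and the 12 that fell most without overlap, the 3 most abundant in each tissue, 2 without annotation in each direction, and up to 3 called members of each list in each direction; the text gives a selection. Members and lists were chosen with earlier results of these data known. Alternatives were a pseudocount of 0.1 TPM, no filter, a filter of 5 TPM, quantile normalization, rescaling without the 100 most abundant genes, the replicate number as a block, a fit over 11 globular maternal libraries, and each library left out. The list counts without gISC replicate 2, rescaled, and after quantile normalization were added after seeing the data.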

Additional observations from a re-analysis of the deposited data

Results flagged for a closer look

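The difference between the CPT and the ISC was tested against that of the other stage for each gene, and 1,275 genes differed between the globular and heart stages (interaction term, limma). Among the genes that the study named, *UGE1* A08g24600D was higher in the CPT by 4.78 at the globular and 2.24 at the heart stage (log2), a difference of -2.53 that was called without each of the 12 libraries in turn (adjusted p of 0.00427 to 0.0281). *UGE1* C08g15730D was higher by 4.07 and 1.89, a difference of -2.18 that was not called without gCPT replicate 2, gCPT replicate 3, or gISC replicate 1 (adjusted p of 0.06 to 0.0676, limma) or with no filter on low values (adjusted p = 0.0999). *CEP1* C03g27700D had log2 changes of 1.09 and -1.06, a difference of -2.15 that was not called without 6 of the 12 libraries in turn or with no filter (adjusted p = 0.0878), although the change at the heart stage was not itself called (adjusted p = 0.241).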

How the results depend on the processing

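Among 195 results on named genes, 172 were called, 127 of them in every setting in which they were tested, and 0 called changes turned sign. Leaving out 1 library ended or added a call in 139 and 7 of 1,163 fits, and no filter on low values ended 34. A filter of 5 TPM left 6,081 genes lower in the gCPT (9,245 with 1 TPM). At the heart stage, 1,366 genes were higher and 1,468 lower with no filter. The stage difference was called in 586 genes with a pseudocount of 0.1 TPM and in 637 with no filter. The C share difference was -1.21 percentage points without the 100 most abundant genes, 1.97 without chromosome C09, and 0.0602 over genes above 1 TPM. Leaving out 1 library gave 5,945 to 9,872 genes higher and 6,664 to 8,674 lower in the gCPT, 1,098 to 2,671 and 1,032 to 3,268 in the hCPT, 517 to 2,243 for the stage difference, 176 to 369 homoeolog pairs, and -10.3 to -6.78 percentage points for the C share. Which causes lie behind these moves was not tested. The replicate numbers gave no sign of pairing, but groups of 3 libraries cannot exclude it. Libraries with the same number deviated with correlations of -0.00244 to 0.0151 at the globular and -0.0451 to 0.0604 at the heart stage. Those with different numbers gave -0.0207 to 0.0171 and -0.211 to 0.170. With the replicate block, 8,286 genes were higher and 8,599 lower in the gCPT, 3,116 and 3,197 in the hCPT, 934 differed between stages, and 279 pairs were called. With 1 read worth up to 0.233 TPM on a median gene, differences among genes near 1 TPM are limited by depth in gCPT replicate 1 and gISC replicate 1.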

Other observations

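The study's list of seed storage genes holds 29 genes that it names as oleosins, 2S albumins, and cruciferins. Their summed level was 8.87 to 10.9 TPM in gCPT libraries and 9.44 to 19.1 TPM in gISC libraries. The sum was 64.7 and 78.7 TPM in the 2 libraries of the peripheral endosperm, 3.42 to 30.0 TPM in the chalazal endosperm, 6.71 to 137 TPM in the gCZSC, and 41.7 and 199.0 TPM in the gOSC. Of the 5 that were tested, 1 was higher and 1 lower in the gCPT, beside 18.7% higher and 20.1% lower over all tested genes. The lower one, *SESA4* C01g19320D, was not called without gISC replicate 2 (adjusted p = 0.107, limma).

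A few wall genes were low in gISC replicate 2, in contrast to the surface genes that were high there. *GH9B9* C04g03840D, of a family of cell wall glucanases, had 20.2, 2.25, and 17.8 TPM in the gISC and 0.507, 2.36, and 1.81 TPM in the gCPT, so that the groups overlapped through that library alone. It was called lower in the gCPT with all libraries (adjusted p = 0.0338) and without gISC replicate 2 (adjusted p = 0.000834). *TBL42* C06g20340D, of a family that acetylates wall polysaccharides, had 4.29, 0.443, and 3.82 TPM in the gISC and was called lower in the gCPT only without that library among the fits that left one out (-0.87 with all libraries, adjusted p = 0.176, and 0.00307 without it).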
